A study of Mus musculus with 18 samples.

Results

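Mouse embryonic stem cells of 2 cultures were compared without an induced deletion or an added factor: Foxd3 conditional knockout cells given DMSO, and CGR8 cells transfected with an empty vector. Each culture was measured on 3 arrays, which are 6 of the 18 arrays of the study, and the arrays were chosen by their labels alone. The knockout cells carry floxed Foxd3 alleles and a Cre recombinase fused to an oestrogen receptor domain (Foxd3fl/fl:Cre-ERT), and they had tamoxifen for 0 days, so that Cre had not been switched on by design. The labels name CGR8 as the source of both groups and give both the same medium, GMEM containing 10% serum and LIF, the cytokine that holds mouse stem cells in self-renewal. They also give both the same lipofection and Trizol protocols. The promoter of the Cre-ERT gene, the number of clones behind the knockout cells, the plasmid they received, if any, feeder cells and hybridisation dates are named by no label used here. The other 12 arrays were of CGR8 cells labelled as transfected with Foxd3, CA-NFATc3 or both, and of the knockout cells after 2 days of tamoxifen. Line, culture history, plasmid, DMSO and batch differ together between the groups and cannot be told apart. Replicates are labelled biological, and nothing says whether they came from separately kept cultures, so the p-values measure the spread between these arrays.

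Foxd3 is a forkhead transcription factor of pluripotent cells and the neural crest, and the series studies what its gain and loss do together with NFATc3. Mouse stem cells in serum and LIF move between a naive state, held by factors such as Nanog, Klf4, Esrrb and Prdm14, and a primed state closer to the epiblast after implantation, marked by Pou3f1, Otx2 and the methyltransferase Dnmt3b. Stem cell lines also differ in sex chromosomes, genetic background, imprinting and passage, and lines that grow on feeders carry RNA of those fibroblasts with them. The comparison gives the distance between the starting cultures of the plasmid and the tamoxifen experiments.

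Both cultures had the transcripts of stem cells. All 10 marker genes set for this check (Pou5f1, Nanog, Sox2, Zfp42, Esrrb, Klf4, Tdgf1, Utf1, Fbxo15 and Dppa5a) had a signal of at least 708.8 in each of the 6 arrays, against a median of 65.8 over all probe sets of all arrays. The signals are MAS5 values on a linear scale. Arrays of one group correlated at r = 0.985 to 0.987 (vector) and 0.984 to 0.986 (knockout) over all probe sets, and arrays of different groups at 0.958 to 0.966. The median signal was 77.6 ± 4.06 (SD, n = 3) in the knockout arrays and 58.5 ± 2.04 in the vector arrays, although the trimmed mean was 500 in each. The 3′ to 5′ signal ratio of actin, a measure of RNA integrity, was 2.15 ± 0.09 in the knockout and 2.31 ± 0.03 in the vector arrays, and that of Gapdh 1.01 ± 0.03 and 0.92 ± 0.04. The number of arrays limits the precision.

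The gene that the line was built around was lower before tamoxifen than in vector cells. Foxd3 signals were 249, 204 and 205 in the knockout arrays and 507, 419 and 404 in the vector arrays, a log2 difference of -0.92 ± 0.13 (SE; limma adjusted p = 0.000131). The groups did not overlap. Differences throughout are knockout minus vector on the scale log2(signal + 32), which understates the change of dim genes. In the other groups Foxd3 averaged 31.5 after tamoxifen, 451 with CA-NFATc3, and 237 and 234 in the libraries labelled as given Foxd3 alone and with CA-NFATc3. The gene was thus not higher in libraries labelled as overexpressing it, and whether this probe set detects the plasmid's transcript was not tested.

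A pair of Y chromosome genes separated the cultures fully. Eif2s3y, a Y-linked subunit of the translation initiation factor eIF2, had signals of 3091, 3510 and 3347 in the knockout arrays and 43.2, 61.6 and 39.9 in the vector arrays. Uty, a Y-linked relative of the histone demethylase Kdm6a, had 435, 391 and 381 against 16.7, 26.02 and 19.3. Both vector means lie under 65.8, so only a lower bound can be given: at least 34.2-fold for Eif2s3y and at least 4.44-fold for Uty, taking 65.8 as the vector level on the log2(signal + 32) scale. All 12 arrays labelled as transfected CGR8 had Eif2s3y at or below 63.2, and all 3 tamoxifen arrays had it between 3368 and 3668. Kdm5d, a Y-linked demethylase, was dim in both groups (28.3 ± 9.74 and 15.9 ± 6.97, SD, n = 3) and was not tested, and a further probe set of Eif2s3y differed by only 0.06. Xist, the RNA that coats the inactive X, had 430, 452 and 422 in the knockout arrays and 301, 366 and 448 in the vector arrays, which overlapped (0.23 ± 0.14, adjusted p = 0.178). The mean of its 3 probe sets differed by 0.61 with an adjusted p of 0.0032. In the second arrays described below, the brightest probe set of Xist did separate the cultures (limma adjusted p = 4.1e-09). Its signals were 979 to 1162 in the tamoxifen arrays and 276 to 445 in the other transfected CGR8 arrays. Of 10 tested genes of X inactivation and the Y chromosome, 4 were called higher and 3 lower, each also in the second arrays described below. Those shares were 40% and 30%, against 33.6% and 23.4% of all genes. The lower ones, named after their values were seen, were the X-linked partners of Y genes Kdm6a (-0.84 ± 0.08), Ddx3x (-0.31 ± 0.06) and Eif2s3x (-0.20 ± 0.06). Besides the pair of Y genes, Rlim, the ubiquitin ligase that promotes Xist expression, was higher by 1.01 ± 0.07 and Ftx, a non-coding neighbour of Xist, by 1.66 ± 0.22.

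The oestrogen receptor gene Esr1, whose hormone-binding domain is the part joined to Cre in such lines, behaved in the same way on 1 of its 3 probe sets. Its signals were 764, 667 and 604 in the knockout arrays and 14.5, 21.6 and 19.8 in the vector arrays, at least 7.23-fold (limma adjusted p = 1.12e-08). The other probe sets differed by -0.26 and 0.20. Which parts of the gene the 3 probe sets match was not analysed here, and whether the bright one detects the fusion gene was not tested.

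**Figure D1:**
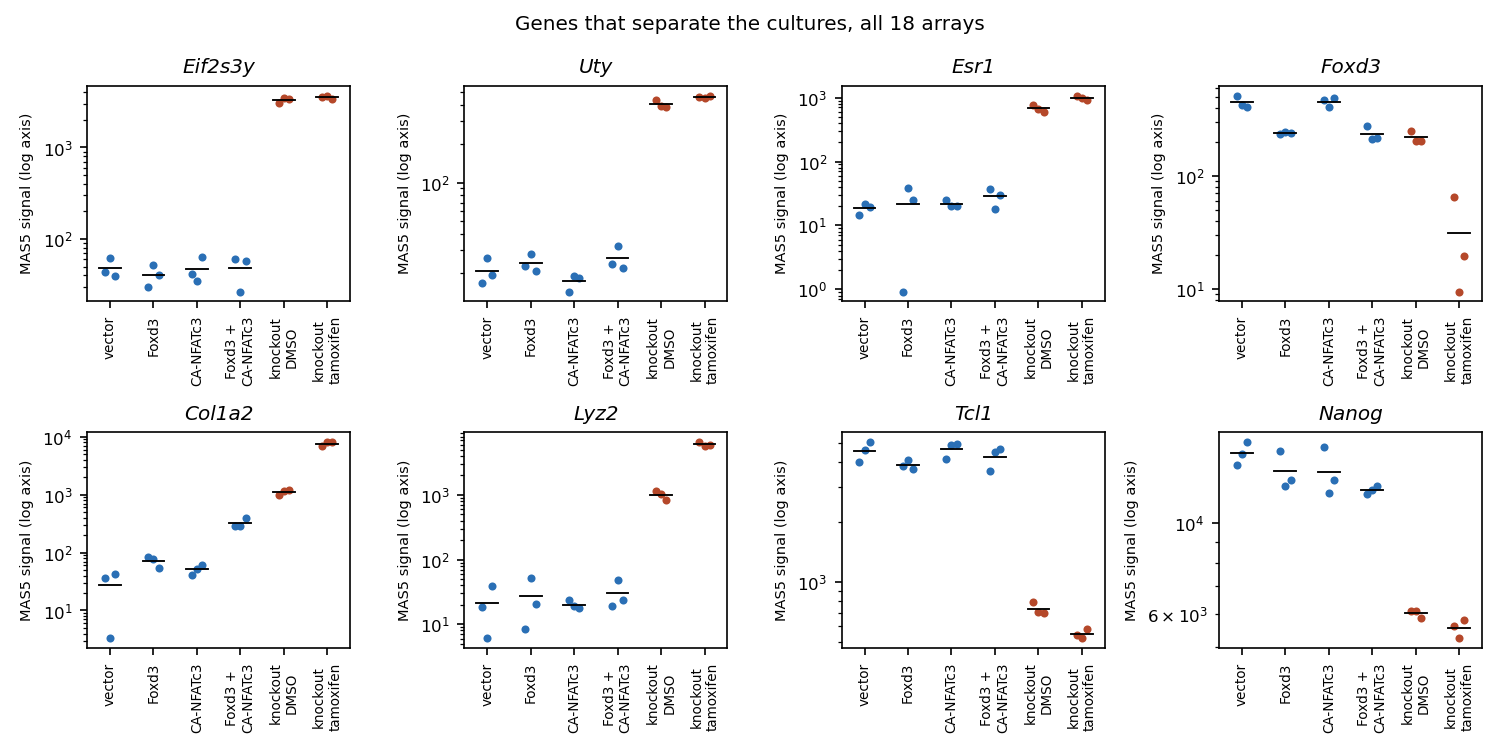
Deposited MAS5 signal (log axis) of 8 genes in all 18 arrays, by group, with each array as a point and the group mean as a line; knockout cells are red and transfected CGR8 cells blue. Eif2s3y, Uty and Esr1 were high in all 6 knockout arrays and in 0 of 12 others, Col1a2 and Lyz2 were higher still with tamoxifen than with DMSO, and Tcl1 and Nanog were lower in all 6 knockout arrays.

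Over all genes the distance was wide. Of 11621 genes tested, 6631 (57.1%) were called at a limma adjusted p under 0.05, with 3908 (33.6%) higher and 2723 (23.4%) lower in the knockout cells. A difference of at least 2-fold was reached by 1035 called genes that were higher (8.91%) and 286 that were lower (2.46%). The groups did not overlap for 7320 genes (63%). The median tested gene differed by 0.09, by -0.02 after quantile normalization and by -0.26 after centring each array on its median, so the split between higher and lower follows the scaling. It was 3008 higher (25.9%) and 3271 lower (28.1%) after quantile normalization, with 684 (5.89%) and 440 (3.79%) of at least 2-fold. Median centring gave 1847 higher (15.9%) and 5552 lower (47.8%), with 540 (4.65%) and 796 (6.85%) of at least 2-fold. Of the 1035, 413 had a vector mean under 65.8. Against 65.8 itself, in place of the vector value, 180 of these were at least 2-fold higher and 233 were not. Without knockout replicate 2 or 3 the count of 2-fold higher genes was 684 or 654, since a gene had to reach 65.8 in 3 arrays to be tested.

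Among the genes higher in the knockout cells, Tagln, which encodes the actin-binding protein transgelin of smooth muscle and fibroblasts, had the largest fitted difference, 6.25 ± 0.22, with signals of 2226, 2572 and 4389 against 2.86, 13.7 and 4.998. That is at least 30.3-fold, below the bound of 34.2-fold of Eif2s3y, so the order among genes this dim in vector cells is not fixed. Next in fitted difference came Lyz1 (at least 26.9-fold), a lysozyme gene that shares sequence with Lyz2, then Eif2s3y, the protease gene Prss23 (at least 17.5-fold) and Ccn1, a secreted matrix protein induced by serum and by YAP. Ccn1 had signals of 2728, 3050 and 4057 against 53.4, 83.1 and 73.1 (5.01 ± 0.16). Acta2, smooth muscle actin, differed by 4.86 ± 0.15 on its brightest probe set but by -0.01 and 0.14 on its 2 others. Anxa3, an annexin that binds membranes with calcium, differed by 4.42 ± 0.14 (3009 ± 628 against 108 ± 12.4, SD, n = 3). Prtg, a receptor of the early embryo, differed by 3.95 ± 0.14, and Bgn, the matrix proteoglycan biglycan, was at least 6.99-fold higher. The other genes among the 15 largest are described with their groups below.

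The largest fitted fall was that of Msc, the transcription factor musculin, which had signals of 51.5, 52.3 and 45.4 in the knockout arrays and 828, 616 and 838 in the vector arrays, at least 8.04-fold lower. Mras, a Ras-related GTPase, had 131, 217 and 106 against 1454, 1276 and 1545 (-3.03 ± 0.18), and its other probe set differed by -0.84. Fam25c had 1599, 1346 and 1283 against 8558, 9768 and 10070 (-2.72 ± 0.09), and the sets of arrays were far apart. Spic, an Ets-family factor, was at least 3.67-fold lower, and Mitf, the factor of pigment and mast cells, was lower by 2.53 ± 0.12 on its brightest probe set and by 0.57 on the other. Aard, Hdgfl3, Tlr2 (a receptor of innate immunity) and Tenm4 (a teneurin of the cell surface) had differences of -2.28, -2.10, -2.08 and -2.05. The 2 other probe sets of Hdgfl3 differed by only -0.66 and -0.68. A930004D18Rik, an unnamed transcript, was at least 3.64-fold lower on 1 of its 3 probe sets, and the others differed by -0.14 and 0.29.

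**Figure D2:**
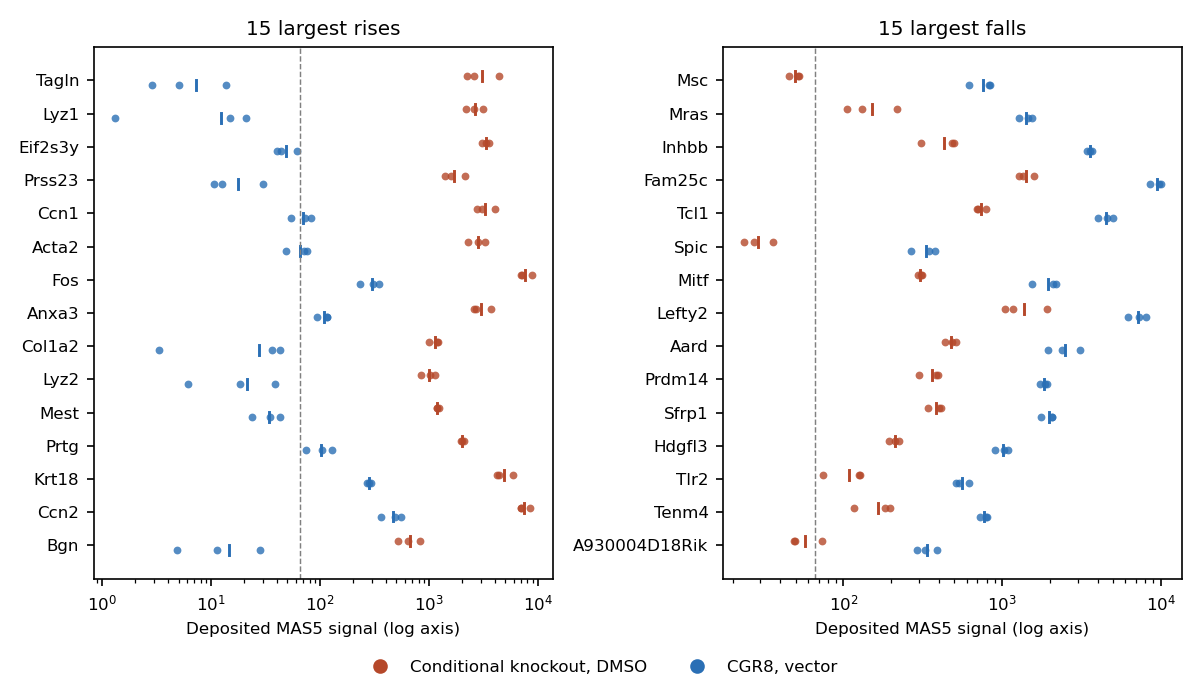
Deposited MAS5 signal (log axis) in each of the 3 knockout DMSO arrays (red) and 3 vector arrays (blue) for the 15 largest rises and 15 largest falls, with group means as short lines and the median of all values, 65.8, as a dashed line. The 30 genes were chosen among those without overlap, so the points of the 2 groups are apart in each by that choice. Under the dashed line lie 9 vector means on the left and 3 knockout means on the right.

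Markers of fibroblasts, the cells commonly used as feeders, were higher in the knockout arrays. Of 24 fibroblast genes, 21 were tested and all 21 were called higher, 17 of them at least 2-fold, with a median of 2.15 (1.87 after quantile normalization) against 0.09 for all genes tested. In the vector arrays 16 of the 24 stayed under 65.8 on every array, so those of them that were tested entered through the knockout arrays and had to differ. Col1a2, a chain of type I collagen, had 1002, 1173 and 1215 against 36.0, 3.34 and 42.4, at least 11.9-fold. Its partner chain Col1a1 had 136, 141 and 125 against 17.5, 19.4 and 5.05, at least 1.70-fold, and Lox, which cross-links collagen, was at least 7.58-fold higher. The summed signal of the list was 18200 to 23940 in the knockout arrays and 6626 to 7809 in the vector arrays. More cells of such a type and more of their RNA in each cell cannot be told apart in bulk samples. Lum and Fap, markers of fibroblasts too, averaged 25.9 and 31.7 in the knockout arrays and were not tested.

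Some macrophage genes were also brighter in the knockout arrays. Of 13 macrophage and blood cell genes on the array 8 were tested, of which 6 were called higher and 2 did not pass, each of the 6 at least 2-fold on the log2(signal + 32) scale. In the vector arrays 11 of the 13 stayed under 65.8 throughout, so the 6 entered the test through the knockout arrays and had to differ. Lyz2, the lysozyme of macrophages, had 1140, 1021 and 844 in the knockout arrays and 18.4, 6.10 and 38.8 in the vector arrays, at least 10.5-fold. Adgre1, the surface protein F4/80, had 176, 246 and 205 against 26.3, 39.6 and 23.6, at least 2.45-fold. Cd14, a co-receptor for endotoxin, and Fcer1g, a signalling chain of Fc receptors, averaged 92.2 and 104 against 9.002 and 15.9. The defining blood cell genes Ptprc and Itgam averaged 40.3 and 28.7 in the knockout arrays, under 65.8 on every array. The summed signal of the list was 1984 to 2173 in the knockout and 442 to 609 in the vector arrays. Of 6 endothelial genes tested 3 were called higher, and 1 after quantile normalization. Flt1, a VEGF receptor, was at least 2.80-fold higher. Cldn5 (0.67, adjusted p = 0.0124) and Esam (0.43, adjusted p = 0.0448) completed that count. Cldn5 missed the threshold without vector replicate 3 (0.0514) or knockout replicate 3 (0.066), and Esam missed it without vector replicate 2 or 3 or any knockout replicate (0.0533 to 0.145) and with the replicate number as a block (0.0668). Both missed it after quantile normalization (0.31, adjusted p = 0.191, and 0.05, adjusted p = 0.825) and after median centring (adjusted p = 0.159 and 0.69). After tamoxifen Col1a2 averaged 7594 and Lyz2 6045, against 1130 and 1001 with DMSO, while Eif2s3y stayed at 3521 against 3316. The part of fibroblast or macrophage RNA in the other differences was not tested.

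The immediate early list had the highest median of the 33 lists after the fibroblast list. These genes are switched on within minutes by serum, growth factors, ERK and calcium, and many encode subunits of the AP-1 transcription factor. Of 20 tested, 18 were called higher and 1 lower, 15 at least 2-fold higher, with a median of 1.79 (1.60 after quantile normalization). Fos, an AP-1 subunit, had 7023, 7173 and 8756 in the knockout arrays and 233, 306 and 350 in the vector arrays (4.56 ± 0.13, adjusted p = 2.92e-09). Egr1, a zinc finger factor downstream of ERK, had 8319, 7890 and 7634 against 731, 369 and 908 (3.60 ± 0.23). Ccn2, the secreted relative of Ccn1, had 6930, 6915 and 8459 against 484, 365 and 555 (3.91 ± 0.13). Within each gene the lowest knockout array was far above the highest vector array. All 12 arrays of transfected cells had Fos at or under 681, and the 3 tamoxifen arrays had it between 8819 and 9515. Summed over the list, signals were 48280 to 55910 in the knockout arrays and 11840 to 12280 in the vector arrays.

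**Figure D3:**
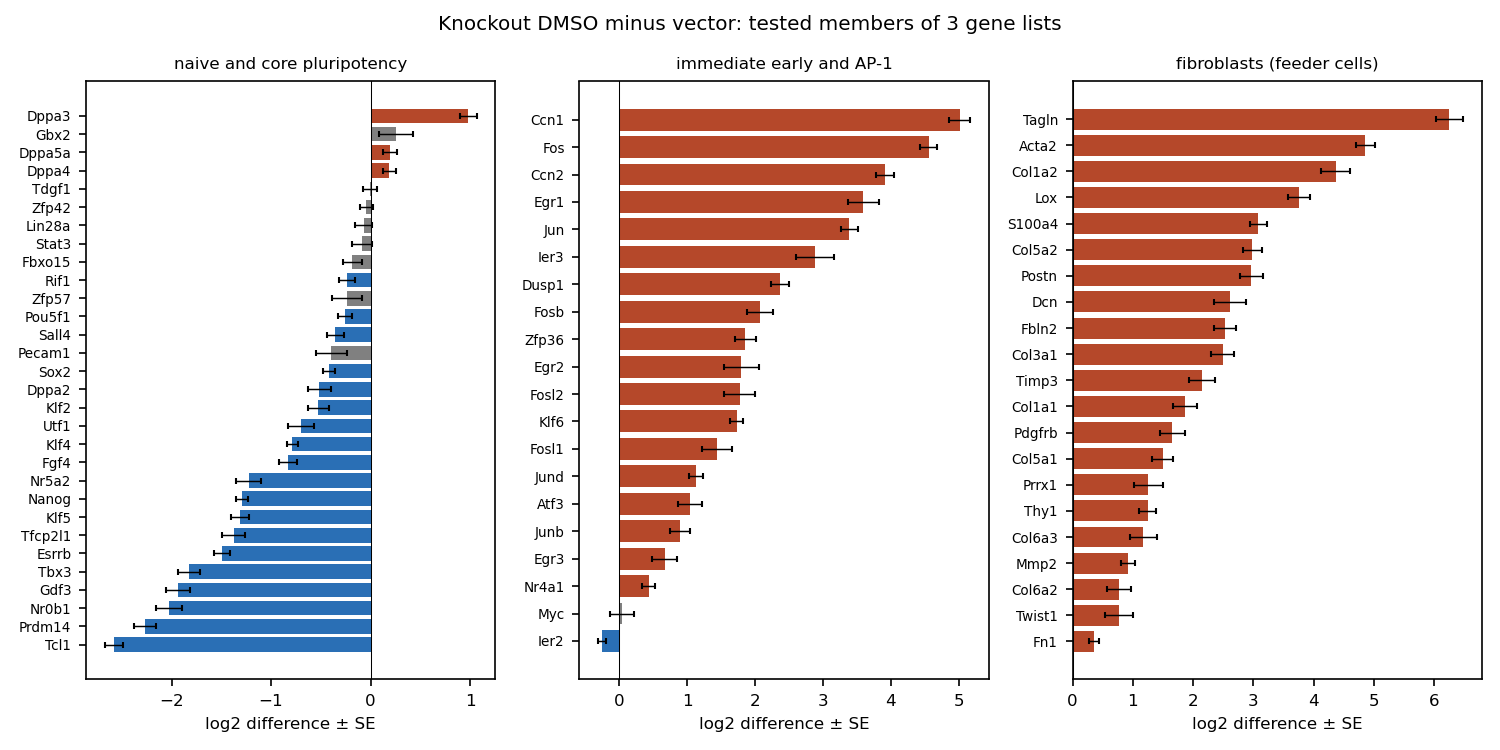
log2 difference (knockout DMSO minus vector) ± SE of the tested members of 3 lists, with called members in red (higher) or blue (lower) and members that did not pass in grey. Of the pluripotency genes 19 of 30 were called lower, of the immediate early genes 18 of 20 higher, and of the fibroblast genes 21 of 21 higher.

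Most naive and core pluripotency genes were lower in the knockout cells, while the core factors Sox2 and Pou5f1 differed little. Of 30 naive and core genes, all tested, 19 were called lower and 3 higher, 10 of them at least 2-fold lower. Their median was -0.47 (-0.46 after quantile normalization). The 3 higher ones, named after their values were seen, were Dppa3 (0.98 ± 0.08), Dppa4 (0.19 ± 0.07) and Dppa5a (0.20 ± 0.07). Of the 19 lower genes, 15 were called lower and 2 higher in the second arrays described below. Tcl1, a coactivator of Akt kinase, had 796, 703 and 698 in the knockout arrays and 4018, 4592 and 5031 in the vector arrays (-2.58 ± 0.09). Prdm14, which represses differentiation and DNA methyltransferase genes, had 397, 384 and 298 against 1876, 1732 and 1919 (-2.27 ± 0.11). Nr0b1, a nuclear receptor of the naive network, was lower by 2.02 ± 0.13, and Gdf3, a ligand of the TGF-beta family, by 1.94 ± 0.12. Nanog itself had 6090, 6102 and 5858 against 13840, 14720 and 15700, a fold of 2.44 (adjusted p = 3.85e-08). Esrrb and Klf4 were lower by 1.49 ± 0.08 and 0.79 ± 0.05. Sox2 and Pou5f1, which encodes Oct4, differed by -0.42 ± 0.06 and -0.26 ± 0.07, with no overlap between the groups. Zfp42, the marker Rex1, averaged 11030 ± 725 and 11350 ± 801 (SD, n = 3), did not pass (adjusted p = 0.631) and overlapped.

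Genes of the primed epiblast were mostly higher. Of 15 tested, 10 were called higher and 3 lower, 8 at least 2-fold higher and 2 at least 2-fold lower. The median was 1.20 (0.97 after quantile normalization). In the second arrays the median was 0.11, and 7 of the 10 were called higher and 1 lower. Pou3f1, the factor Oct6 of early epiblast and neural cells, had 2091, 1516 and 1580 in the knockout arrays and 190, 113 and 96.8 in the vector arrays (3.44 ± 0.19). Dnmt3b, a de novo DNA methyltransferase, had 13750, 13450 and 12670 against 5957, 3651 and 3784 (1.60 ± 0.14). Pim2, a survival kinase, differed by 1.90 ± 0.11, and Cldn6, a claudin of embryonic epithelia, by 1.72 ± 0.14. Fgf5, the classical primed marker, was dim in both groups (47.8 ± 4.93 and 20.5 ± 11.6) and was not tested. Of 11 early neural genes tested, 5 were called higher (45.5%) and 3 lower (27.3%), against 33.6% and 23.4% of all genes, with a median of -0.01. Among them were Sox11 at 1.68 ± 0.08, Nrcam at 1.39 ± 0.20 (other probe sets -0.15 to 1.32) and Nes (nestin) at 1.24 ± 0.18 (others -0.02 and 2.30). The neuronal tubulin Tubb3 differed by -1.48 ± 0.12. Of the primitive streak list, 5 of 16 genes were tested, with Eomes (0.81 ± 0.18) and Hhex (0.59 ± 0.11) called higher. Hhex missed the threshold after median centring (0.24, adjusted p = 0.0923), and Eomes differed by -0.18 in the second arrays (adjusted p = 0.286).

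Nodal, activin and BMP ligands bind paired receptors that phosphorylate Smad factors, and Lefty proteins block Nodal. Among 29 genes of this pathway 8 were called higher and 8 lower (27.6% each, against 33.6% and 23.4% of all genes), with a median of 0.03. The 2 activin subunit genes went opposite ways. Inhba had 485, 399 and 404 in the knockout arrays and 7.13, 28.7 and 24.1 in the vector arrays, at least 4.70-fold higher. Inhbb had 486, 497 and 310 against 3706, 3421 and 3588 (-2.99 ± 0.14), and its other probe set differed by -0.48. Lefty2 had 1921, 1181 and 1046 against 6219, 7330 and 8073 (-2.40 ± 0.18), with knockout replicate 1 nearest the vector arrays. Each of the 16 called genes of this list was called in the same direction in the second arrays described below.

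In the Wnt pathway, whose ligands stabilise beta-catenin through Frizzled receptors, 10 of 25 tested genes were called higher and 5 lower (median 0.14). Those shares were 40% and 20%, against 33.6% and 23.4% of all genes. The secreted inhibitor Sfrp1 had 340, 401 and 414 against 1765, 2061 and 2078 (-2.26 ± 0.10), and its other 4 probe sets were lower too, by 0.95 to 2.81. The target gene Sp5 was at least 3.97-fold higher, the ligand gene Wnt4 at least 2.43-fold, and the receptor gene Fzd2 differed by 1.55 ± 0.16. Of 19 genes of FGF signalling and its ERK feedback, 8 were called higher (42.1%) and 3 lower (15.8%). The median was 0.30, and -0.05 after median centring, against 0.09 and -0.26 for all genes tested. Dusp6 and Dusp4, phosphatases that ERK induces and that switch it off, differed by 1.46 ± 0.07 and 1.56 ± 0.14, and the AP-1 gene Fosl1 was at least 1.22-fold higher.

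Of 17 genes of the LIF pathway, which runs through gp130 and Jak kinases to Stat3, 6 were called higher (35.3%) and 5 lower (29.4%). Over all genes the shares were 33.6% and 23.4%. Besides Fos, the higher ones were led by Osmr, the oncostatin M receptor (97.6 against 13.5), by the kinase Pim1 (1.34 ± 0.08) and by Jak2 (1.04 ± 0.15). Among 17 genes of calcineurin and NFAT, the phosphatase and factors that the study manipulates, 9 were called higher and 8 did not pass. Their median was 0.32, and -0.03 after median centring, against 0.09 and -0.26 for all genes tested. Ptgs2, the inducible cyclooxygenase, had 1044, 779 and 1057 against 31.7, 31.9 and 41.8, at least 10.1-fold, and Egr2 was at least 1.60-fold higher. Nfatc2 differed by 1.25 ± 0.18 and the catalytic subunit gene Ppp3ca by 0.69 ± 0.11. Nfatc3 differed by 0.25 ± 0.07, which became -0.10 after median centring. Rcan1, the feedback inhibitor of calcineurin, averaged 1157 ± 85.5 and 1196 ± 60.6 (SD, n = 3) and overlapped (adjusted p = 0.658). Of 16 forkhead genes tested, 8 were called higher (50%) and 2 lower (12.5%), with Foxd3 the lowest. Each called gene differed by less than 2-fold on the log2(signal + 32) scale. Foxq1, Foxj2 and Foxp1 differed by 0.94, 0.67 and 0.62, and the mean over all probe sets left Foxj2 (0.23) and Foxp1 (0.12) short of the threshold. The other probe set of Foxj2 differed by -0.22 and the 7 others of Foxp1 by -1.02 to 0.32.

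Epithelial genes were strongly higher. Simple keratins, the intermediate filaments of the trophectoderm and other first epithelia, led a trophectoderm list in which 10 of 12 tested genes were called higher and 1 lower (median 1.30, 1.00 after quantile normalization). Of its 19 genes on the array 9 stayed under 65.8 on every vector array. Krt18 had 4221, 4368 and 5924 in the knockout arrays and 268, 290 and 283 in the vector arrays (3.95 ± 0.12). Its filament partner Krt8 had 4642, 4177 and 6136 against 280, 374 and 283 (3.86 ± 0.14). In both genes the 3 vector arrays lay close together and far below. Krt19 differed by 2.92 ± 0.22. Among the other transfected CGR8 arrays Krt19 reached 839 (median 155), above the lowest knockout DMSO array at 652. Cdx2, the factor that specifies trophectoderm, had 226, 266 and 354 against 20.9, 18.5 and 5.26, at least 3.17-fold.

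Among cadherins and junction genes 17 of 23 tested were called higher and 3 lower (median 0.83). Cldn7, a claudin of epithelial tight junctions, had 1954, 2184 and 2551 against 335, 462 and 351 (2.45 ± 0.13), and Esrp1, an epithelial splicing factor, had 1723, 1686 and 1800 against 412, 414 and 391 (2.02 ± 0.08). The desmosomal cadherin gene Dsc2 differed by 1.80 ± 0.26, with knockout replicate 3 at 546 and the others at 262 and 249. Of 23 basement membrane and matrix genes 19 were called higher and 3 lower (median 0.71, 0.36 after median centring). They included the integrin gene Itgav (1.74 ± 0.10, other probe sets -0.09 to 0.74), the collagen IV genes Col4a5 (at least 2.54-fold) and Col4a1 (1.56 ± 0.14), and P4ha1, which hydroxylates collagen (1.61 ± 0.15). These are genes that fibroblasts express too. Col4a1 reached 3440 among the other transfected CGR8 arrays (median 788), above each knockout DMSO array, and differed by 0.30 in the second arrays. Of 16 primitive and visceral endoderm genes, 10 were called higher and 4 lower (median 0.83). Srgn, a granule proteoglycan also abundant in blood cells, was at least 3.77-fold higher, the endocytic adaptor gene Dab2 at least 2.99-fold, and Col4a2 differed by 1.42 ± 0.14. Col4a2 too reached a value above each knockout DMSO array, 957, among the other transfected CGR8 arrays (median 272). Gata6, which drives primitive endoderm, averaged 143 ± 26.3 and 66.8 ± 11.3 (0.82 ± 0.18, adjusted p = 0.00234) and missed the threshold after quantile normalization (0.0569), and its other probe sets differed by -0.10 and 0.51.

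**Figure D4:**
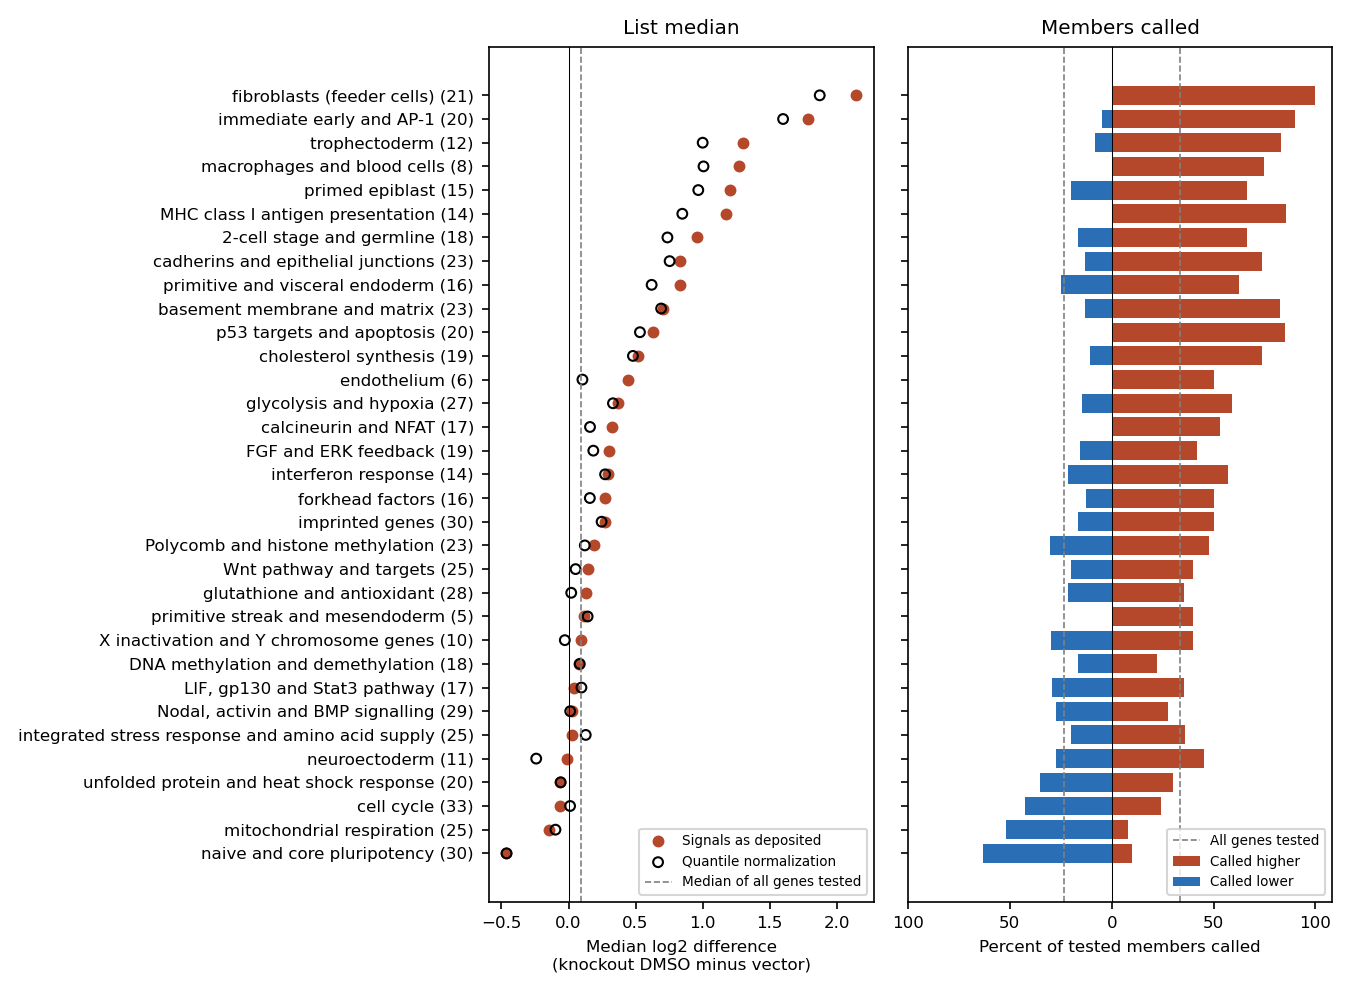
Median log2 difference (knockout DMSO minus vector) of 33 gene lists as deposited (filled) and after quantile normalization (open), and the percent of tested members called higher (red) or lower (blue) at adjusted p under 0.05, with dashed lines for all genes tested. The number of tested members stands beside each name; fibroblast, immediate early and trophectoderm genes lie furthest right, and, as deposited, pluripotency and mitochondrial genes furthest left.

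Imprinted genes, which are read from only the maternal or the paternal copy and whose methylation drifts between stem cell lines, included some of the widest single differences. Of 30 tested, 15 were called higher and 5 lower, 8 at least 2-fold higher and 1 at least 2-fold lower. Their median was 0.27, 0.25 after quantile normalization and -0.08 after median centring. The medians of all genes tested were 0.09, -0.02 and -0.26, so the list lay above them in each scaling. Mest, a paternally expressed gene of mesoderm, had 1171, 1237 and 1173 in the knockout arrays and 23.8, 34.7 and 43.1 in the vector arrays, at least 12.5-fold (adjusted p = 4.19e-09). Plagl1, a zinc finger factor, was at least 5.64-fold higher on its brightest probe set, and its other 2 probe sets differed by 0.02 and 0.61. Igf2, the fetal growth factor, had 848, 1161 and 1168 against 123, 76.0 and 57.6 (3.24 ± 0.20), and its other probe set differed by 0.14. The growth inhibitor Cdkn1c differed by 1.85 ± 0.14. Ddc, which makes dopamine and serotonin, was lower by 1.93 ± 0.11 (905 against 3549). Meg3, a maternally expressed RNA linked to the quality of stem cell lines, averaged 4399 ± 159 and 5084 ± 515 (SD, n = 3), overlapped and passed at 0.0411. It missed the threshold without vector replicate 2 or 3 or any knockout replicate (0.0637 to 0.182), after quantile normalization (0.211), over the mean of its probe sets (0.524), without the filter (0.0628) and without a variance trend (0.114). After median centring it passed (-0.55, adjusted p = 6.7e-05). In the second arrays Meg3 differed by -0.73 (limma adjusted p = 6.1e-08), with 3855 to 4434 after tamoxifen against 5244 to 8802. In the tamoxifen arrays Mest averaged 1350, and in all 12 transfected CGR8 arrays it was at or under 50.4. Igf2 reached 1270 in one of the 9 other transfected CGR8 arrays (median 271), above each knockout DMSO array. The relation of these genes to the fibroblast genes was not tested.

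De novo DNA methyltransferases were higher and the demethylase gene Tet1 differed between its probe sets. Besides Dnmt3b, Dnmt3a had 3207, 2657 and 2200 in the knockout arrays and 1341, 863 and 1002 in the vector arrays (1.31 ± 0.16). Dnmt3l, their cofactor, averaged 1840 ± 308 and 1580 ± 210 and overlapped (adjusted p = 0.159). Tet1 differed by -0.33 ± 0.07 on its brightest probe set, by -0.02 to 0.36 on the others, and by 0.06 when its 4 probe sets were averaged. Of the 18 genes of methylation and demethylation tested, 4 were called higher and 3 lower. Those shares, 22.2% and 16.7%, lie under the 33.6% and 23.4% of all genes. The stress genes Gadd45b (1.35 ± 0.18) and Gadd45a (1.26 ± 0.08) made up the rest of the higher ones. Polycomb and other histone methylation genes differed little: 11 of 23 were called higher (47.8%) and 7 lower (30.4%), each by less than 2-fold on that scale. The ring finger gene Rnf2, with 4739, 4780 and 4741 against 7712, 7609 and 7753, was lower by 0.69 ± 0.05, Bmi1 by 0.63 ± 0.14 and the core subunit gene Eed by 0.61 ± 0.07. Ezh1 differed by 0.67 ± 0.12, and by 0.36 with an adjusted p of 0.159 over its probe sets.

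Of 18 tested genes of the 2-cell stage and the germline, many of which DNA methylation silences, 12 were called higher and 3 lower, with a median of 0.96. Sycp1, a protein of the meiotic chromosome axis, had 628, 441 and 357 against 85.1, 99.4 and 67.8 (2.10 ± 0.19). Usp17la, a ubiquitin protease of a multigene family whose copies an array may not tell apart, differed by 1.94 ± 0.16. Mael and Ddx4 (Vasa), both of the piRNA pathway, differed by 1.39 ± 0.12 and 1.38 ± 0.11. Each of the 12 was called higher in the second arrays as well.

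MHC class I genes, which are low in mouse stem cells, were higher in the knockout cells. Of 14 tested, 12 were called higher and 2 did not pass, 8 of the 12 by at least 2-fold, with a median of 1.17 (0.85 after quantile normalization). B2m, the light chain of class I, had 3161, 3379 and 3609 in the knockout arrays and 633, 852 and 703 in the vector arrays (2.17 ± 0.10). Psmb8, an immunoproteasome subunit, had 188, 181 and 287 against 8.08, 8.78 and 7.40, at least 2.52-fold. Tap1, the peptide transporter, was at least 3.44-fold higher on 1 of its 4 probe sets, and the others differed by -0.33 to 0.25. H2-K1 and H2-D1, the heavy chains, differed by 1.38 ± 0.10 and 1.44 ± 0.13, and their probe sets may share signal because the genes are alike. The 8 other probe sets of H2-D1 differed by -0.22 to 1.86. Of 14 interferon-response genes tested, 8 were called higher and 3 lower. Their median was 0.29, and -0.06 after median centring, against 0.09 and -0.26 for all genes tested. Of the 22 on the array 11 stayed under 65.8 on every vector array. Those of them that were tested entered through the knockout arrays and had to differ. The summed signal of the list was 18990 to 19760 in the knockout and 20760 to 22710 in the vector arrays. Gbp2, a GTPase induced by interferon-gamma, had 557, 624 and 1114 against 18.9, 16.5 and 22.9, at least 7.80-fold. Bst2, tetherin, differed by 2.36 ± 0.09, and the GTPase gene Igtp by 1.81 ± 0.20. Usp18, which removes the ubiquitin-like ISG15, was at least 2.03-fold higher. These genes stood high in the same arrays as fibroblast and macrophage markers, and the share of those cells in them was not tested.

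Targets of p53 and apoptosis genes were mostly higher: 17 of 20 tested were called higher and 3 did not pass, 6 of the 17 at least 2-fold higher (median 0.63, 0.28 after median centring). Cdkn1a, the inhibitor p21, had 2076, 2182 and 2144 against 493, 894 and 763 (1.57 ± 0.16). Plk2 and the pro-apoptotic Pmaip1 (Noxa) differed by 1.39 ± 0.09 (other probe set -0.05) and 1.26 ± 0.09, and the survival gene Bcl2 was at least 1.98-fold higher. Among 33 cell cycle genes 8 were called higher (24.2%) and 14 lower (42.4%). The median was -0.06, and 0.01 after quantile normalization. Those with at least 2-fold differences were all inhibitors of cyclin-dependent kinases: Cdkn2b, with 420, 408 and 446 against 60.3, 69.0 and 97.9 (2.10 ± 0.16), Cdkn1c, Cdkn1a and Cdkn2a (1.5 ± 0.20).

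Metabolic genes differed by smaller amounts. Of 19 cholesterol synthesis genes 14 were called higher and 2 lower (median 0.52, 0.17 after median centring), among them Cyp51 (1.19 ± 0.10), Msmo1 (1.02 ± 0.08), Lss (0.99 ± 0.10) and Dhcr7 (0.99 ± 0.14). Of 25 genes of mitochondrial respiration 13 were called lower and 2 higher, with a median of -0.14. The complex I genes Ndufv1, Ndufs1 and Ndufb8 were lower by 0.65, 0.64 and 0.56, and their groups did not overlap. Nnt, the transhydrogenase gene that some mouse strains lack, had 1887, 2393 and 2264 against 1186, 1200 and 1021 (0.92 ± 0.10). In the second arrays Nnt differed by only 0.06 (limma adjusted p = 0.70), and the other transfected CGR8 arrays ranged from 1105 to 2124. Glycolysis and hypoxia genes numbered 27, of which 16 were called higher and 4 lower (median 0.37, 0.02 after median centring), with Ankrd37 at 0.98 ± 0.09, Egln1 at 0.89 ± 0.12 and Pfkm at 0.81 ± 0.12. Of these 16, 5 were called higher and 5 lower in the second arrays.

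Stress genes had no common direction. Of 25 genes of the integrated stress response and amino acid supply 9 were called higher (36%) and 5 lower (20%). Over all genes the shares were 33.6% and 23.4%. Ddit4, an inhibitor of mTORC1, had 8158, 10900 and 11820 against 1013, 2560 and 1679 (2.61 ± 0.25), and Ddit3, which encodes CHOP, differed by 1.68 ± 0.19. The arginine transporter gene Slc7a3 was lower by 1.48 ± 0.09 and Chac1, which degrades glutathione, by 1.22 ± 0.24. Of 20 genes of the unfolded protein and heat shock response 6 were called higher (30%) and 7 lower (35%). The heat shock genes Hspa1a and Hspa1b, near-identical copies that share signal, differed by 1.64 ± 0.16 and 1.06 ± 0.16, Pdia4 by 0.76 ± 0.15 and Herpud1 by -0.84 ± 0.17. Among 28 glutathione and antioxidant genes 10 were called higher (35.7%) and 6 lower (21.4%). The widest differences were those of Gpx8 (2.78 ± 0.15), Gstt1 (1.55 ± 0.14), Mgst1 (1.52 ± 0.11, other probe set -0.23) and the metallothionein Mt1 (1.07 ± 0.13).

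Differences were not spread evenly along the genome. Chromosome Y, with 3 tested genes, all called higher, had a median of 3.05 and is left out of what follows. On the 20 others, the 19 autosomes and X, the median difference ran from -0.12 on chromosome 19 to 0.27 on chromosome 6, around 0.09 for all genes tested. For 20 of 20 chromosomes the 3 knockout arrays and the 3 vector arrays did not overlap in their median deviation from the mean of the 6 arrays. Single genes did not overlap in 63% of all genes tested, and other gene sets of such size were not compared. The medians of 20 of 20 chromosomes also fell on the same side of the overall median in the second arrays, each comparison taken against its own. Between the CGR8 groups labelled Foxd3 and CA-NFATc3 the chromosome medians lay between -0.04 and 0.01. The lower chromosomes were 1, 3, 7, 11, 12, 14, 15, 19 and X. Brightness moved with the difference as well, with medians of -0.04 for the tested genes brighter than the median gene and 0.27 for the dimmer ones. In 17 chromosomes the brighter and the dimmer genes, each against their own median, fell on the same side as the whole.

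On chromosome 6, 177 of 252 genes called higher lay in one stretch. Tested genes were put in the order of the RefSeq gene table (GRCm38.p6) and divided into 453 runs of 25 to 27 neighbours. Runs 4 to 12 of the 21 on chromosome 6, from Chchd3 to Grip2, each had a median of at least 0.40, as did 13 of the runs elsewhere. The stretch held 232 genes, of which 177 (76.3%) were called higher, 6 lower and 49 did not pass, against 33.6% called higher over all genes. Its median was 0.58 (quartiles 0.33 and 0.99), 0.49 after quantile normalization and 0.60 in the second arrays, and between the CGR8 groups labelled Foxd3 and CA-NFATc3 it was 0.00. Of these genes 57 were at least 2-fold higher. The median deviation of the stretch was 0.25 to 0.28 in each knockout array and -0.28 to -0.27 in each vector array. On the remainder of chromosome 6, 75 of 303 genes were called higher and 113 lower (median -0.06), and run 14, from Pdzrn3 to Fancd2os, had the lowest median of all 453 runs, -0.58. The stretch was chosen after its values were seen, so it has no test, and its cause was not tested.

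**Figure D5:**
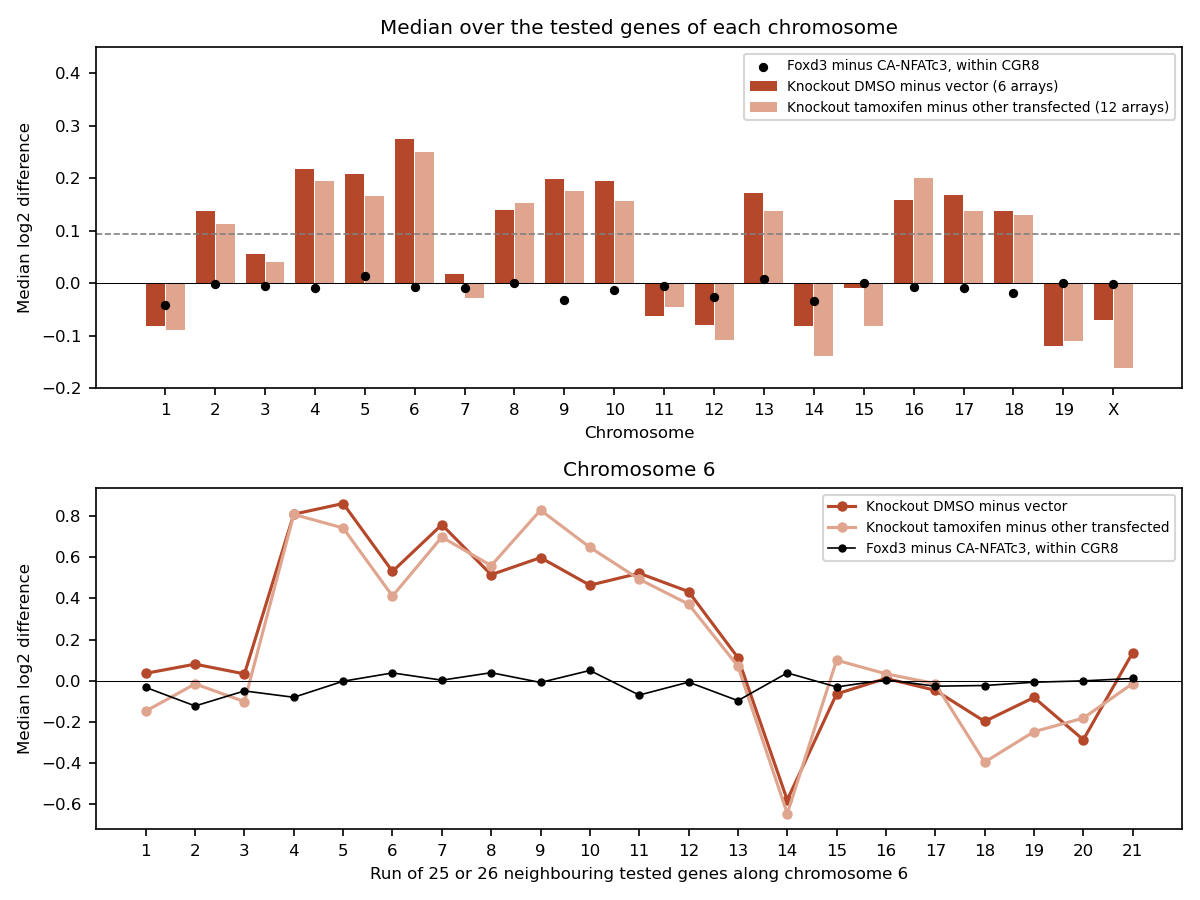
Median log2 difference of the tested genes of each chromosome (upper) and of runs of neighbouring genes along chromosome 6 (lower), for knockout DMSO minus vector (dark red), knockout tamoxifen minus the other transfected groups (light red) and Foxd3 minus CA-NFATc3 within CGR8 (black); the dashed line is the median of all genes tested. Runs 4 to 12 of chromosome 6 stand at 0.43 to 0.86 in the first comparison, while the black points stay near 0.

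The 12 arrays that the comparison did not use gave a second measurement of the distance between cultures. Knockout cells after tamoxifen (3 arrays) were compared with the mean of the 3 other transfected CGR8 groups (9 arrays), so both sides carry a further treatment. In these arrays 7877 of 12304 genes tested (64%) were called, 4550 higher (37%) and 3327 lower (27%). Of the 1035 genes at least 2-fold higher in knockout cells with DMSO, 1009 were tested here, 945 (93.7%) were called higher, 4 lower, and 60 did not pass. All 3 tamoxifen arrays lay above all 9 others for 868 of them, against 28.7% of all genes tested. Of the 286 genes at least 2-fold lower, 267 (93.4%) were called lower and 5 higher, and for 244 all 3 tamoxifen arrays lay below the others, against 20.6%. Among the 148 named genes called in the first comparison, 136 were called in the same direction and the other 12 did not pass. Most of them were picked for large differences. Other called list members did turn, such as 5 of the 16 higher glycolysis and hypoxia genes, which were called lower here. The difference of Tcl1 was -2.88 here and that of Nanog -1.21, close to their first values, whereas Lyz2 (6.75), Inhba (5.40) and Usp18 (5.77) had values above their first ones. The differences between both comparisons were not tested. The trophectoderm list had a median of 0.44 here, with 6 of its 10 higher genes called higher again. Of 14 higher cholesterol genes 8 were called higher and 2 lower. Genes without a call here included Dnmt3a (0.11, adjusted p = 0.523) and Cdkn1c (-0.08, adjusted p = 0.615). Dnmt3b differed by 0.33, with vector cells at 4464 and the other transfected groups at 7031 to 10040.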

How the data were processed

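Total RNA of 2 cultures, conditional knockout cells with DMSO and CGR8 cells with vector, was measured on 3 arrays each. The deposited values are an intensity per probe set on a linear scale, the MAS5 signal per the submitters' processing notes, which give no version. From the values, the authors' scaling set the mean without the extreme 2% at each end to 500 on every array, and detection calls were not used here. Probe sets with 1 symbol in the platform's annotation (34945 of 45101) covered 18193 genes, each read from the probe set brightest on average (log2) in the 18 arrays. For 9010 genes there were several probe sets, which can disagree, as examples in the text show.

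The scale was log2(signal + 32), without further normalization. Genes at or above 65.8, the median of all deposited values, in at least 3 of the 6 arrays were tested with limma 3.58.1 in R 4.3.3 (lmFit, eBayes with a variance trend, two-sided, Benjamini-Hochberg over 11621 genes, called at an adjusted p under 0.05), without covariates. A gene under 65.8 on every vector array could be tested only if all 3 knockout arrays reached 65.8, so it had to be higher there. Of the genes on the array, 5 of 20 immediate early, 3 of 14 MHC class I and 8 of 21 endoderm genes were under 65.8 on every vector array. The 12 other arrays were fitted separately. The procedure was tested on simulated data with few changed genes and no shift between the groups. These arrays differ from that setting, so the simulation does not bear on the scaling. "At least" marks a fold against 65.8, where the dimmer group's mean lay under it. Figures were drawn with matplotlib 3.10.9.

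Named genes are the 15 largest rises and 15 largest falls among called genes without overlap between the groups, the 4 called members of each of 33 gene lists with the largest differences, and a short fixed set of line, pluripotency and pathway genes. The comparison, lists and rule were chosen with earlier results of these data known. List counts are thus descriptions beside the shares of all genes (33.6% higher, 23.4% lower), with no test of a list. Of any pair of arrays at most 0.00443% of values were identical. Residuals of arrays with the same replicate number correlated at -0.0594 to 0.0785, so the numbers were not taken to pair arrays. Alternatives changed the offset, filter, scaling, probe set rule, variance model and arrays. A few listed genes are not analysed here.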

Additional observations from a re-analysis of the deposited data

How the results depend on the processing

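The total called stayed within 1.5 times of 6631 under each alternative run, and that of the second arrays within 1.5 times of 7877. Scaling moved the split: quantile normalization gave 684 higher and 440 lower by at least 2-fold, and median centring gave 1847 higher and 5552 lower genes (540 and 796 at 2-fold or more). Leaving out single arrays gave 5114 to 6207 genes called, and 654 to 1081 higher by at least 2-fold. The lowest values were 684 without knockout replicate 2 and 654 without replicate 3, where fewer genes could reach the filter. The replicate number as a block (replicate block) gave 6645 genes called and left 151 of 152 named genes on their side of the threshold. Nfatc3 (-0.0979, median centring) and Tet1 (0.0613, mean of probe sets) changed sign, and the cause was not tested. Of 152 named genes tested, median centring left 145, quantile normalization 148, and the mean of probe sets 135 with the same direction and call. Signals under 65.8 limit the folds of dim genes.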
